A study of Rattus norvegicus with 18 samples.

Results

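The CpGs described here lie apart from other CpGs and were neither fully methylated nor fully unmethylated in the striatum of untreated rats. They were chosen by a rule from reduced representation bisulfite sequencing (RRBS) of the striatum. Cytosines of CpGs on chromosomes 1 to 20 of rn6 with at least 10 reads were kept, both strands of a CpG were added up, and CpGs present in all 18 striata formed a set of 292497 CpGs. A CpG was taken as sparse when at most 4 other CpGs of the set lay within 100 bp, and as intermediate when its mean methylation over the 6 UNT striata was from 20 to 80%. Both conditions were met by 64812 CpGs, or 22.2% of the set, and all of them entered every comparison below. In all, 235675 CpGs of the set were sparse and 68196 were intermediate. The methylation of the UNT rats chose the CpGs, so that values from UNT and comparisons with UNT are given as descriptions.

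The samples were the control and the lesioned striatum of 9 juvenile male Wistar rats, with 3 rats in each of 3 groups. All rats of all groups had been injected on one side with 6-OHDA, a toxin of dopaminergic neurons, into the medial forebrain bundle on postnatal day (PND) 21. From PND 35 to PND 49 the UNT rats received saline, the L-DOPA rats received L-DOPA with benserazide, and the L-DOPA + R rats received L-DOPA with benserazide and Riluzole, which dampens glutamate release. The last treatment was given on PND 53, when the striata were taken. The control striatum is therefore the other side of a lesioned brain and not that of an intact rat. The bulk tissue holds neurons and glia, and different shares of cell types and different methylation within a cell type cannot be told apart in it.

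DNA methylation in mammals is found mainly at CpG dinucleotides. CpGs that stand close together in CpG islands are mostly unmethylated, while scattered CpGs between and within genes are mostly methylated. A single cytosine of one DNA molecule is either methylated or not, so that a level between these states is a mixture of molecules. Such mixtures are known from tissues with several cell types, from imprinted genes, where the maternal and the paternal copy differ, and from sites where animals differ in their DNA sequence or in the methylation of a copy. In RRBS, the DNA is cut by MspI at CCGG regardless of methylation, and the fragments are treated with bisulfite, which turns unmethylated cytosines into bases read as T. Each read starts at a cut site, so that a CpG lies at a fixed place along the read of each strand.

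Of the CpGs that differed between treatments in the tests below, 24 lay in promoters of 20 genes according to the region lists of the study, and 14 of these genes had a promoter sequence in RefSeq (GRCr8). The table holds 33469 promoters of 300 bases, with 250 bases before the start and 50 after it. A promoter contained a median of 7 CG dinucleotides, and 94.5% contained at least 1. CG was searched as these letters, which read the same on both strands. The sequences of 3 promoters are given to show how sparse and how dense in CpGs such promoters were, with every CG in capitals. The promoter of Igfals, a liver protein that holds insulin-like growth factors in the blood, had 4, and 69.3% of all promoters had at least as many. That of Serpinh1, a chaperone of collagen, had 11, a number reached by 39.0% of promoters. That of Parp16, an ADP-ribosyltransferase of the endoplasmic reticulum, had 26, a number reached by 15.2%. The sequences are from GRCr8 and the positions of the CpGs from rn6, and whether the CpGs described below lie in these windows was not tested.
Igfals promoter, GRCr8 chr10:14403600-14403899, strand +: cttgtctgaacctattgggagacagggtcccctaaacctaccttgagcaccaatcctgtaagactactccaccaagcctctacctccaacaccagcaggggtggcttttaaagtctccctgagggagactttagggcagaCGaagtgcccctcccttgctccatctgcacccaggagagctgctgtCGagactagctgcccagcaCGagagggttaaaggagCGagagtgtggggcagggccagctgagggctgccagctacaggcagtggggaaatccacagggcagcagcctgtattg
Serpinh1 promoter, GRCr8 chr1:163062927-163063226, strand -: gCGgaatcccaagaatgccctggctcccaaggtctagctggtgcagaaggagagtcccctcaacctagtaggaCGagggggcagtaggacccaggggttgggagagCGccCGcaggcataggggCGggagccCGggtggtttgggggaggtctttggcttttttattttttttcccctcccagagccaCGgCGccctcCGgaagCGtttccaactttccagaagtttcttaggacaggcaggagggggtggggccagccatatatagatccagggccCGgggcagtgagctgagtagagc
Parp16 promoter, GRCr8 chr8:74626535-74626834, strand +: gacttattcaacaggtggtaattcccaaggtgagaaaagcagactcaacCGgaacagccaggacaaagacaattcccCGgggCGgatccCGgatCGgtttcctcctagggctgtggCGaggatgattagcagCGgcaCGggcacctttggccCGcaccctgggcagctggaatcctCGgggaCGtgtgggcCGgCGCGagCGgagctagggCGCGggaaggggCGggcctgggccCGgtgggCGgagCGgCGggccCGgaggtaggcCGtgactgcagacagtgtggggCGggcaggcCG

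A further promoter was that of Mir29b1, which encodes the miR-29b hairpin of the miR-29 family, known for silencing collagens and DNA methyltransferases. Its mature miRNAs are given from RefSeq (GRCr8) to show the product of this gene, with the seed, bases 2 to 8, in capitals. Their seeds differ, so that they do not form a seed group.
rno-miR-29b-3p: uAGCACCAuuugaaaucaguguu
rno-miR-29b-1-5p: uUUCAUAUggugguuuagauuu

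Each UNT striatum had from 30304520 to 49146750 calls, against 18480983 to 30778121 for L-DOPA and 19402864 to 25865285 for L-DOPA + R. The median coverage of the sparse intermediate CpGs was 36 to 61 reads in the UNT striata, 23.5 to 38 for L-DOPA and 24 to 32 for L-DOPA + R. The group with more reads was thus the one whose levels chose the CpGs.

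The CpGs were spread over all autosomes, and they made up between 20.9% of the set on chromosome 2 and 24.6% on chromosome 19. Most of them stood alone or nearly so, since 17047 (26.3%) had no other CpG of the set within 100 bp and 21858 (33.7%) had 1, while 3709 (5.72%) had 4. Sparse CpGs over 80% in UNT had a similar distribution, with 25.4% having no other CpG in this window and 6.19% having 4. The UNT levels leaned to the upper end of the window, with 18644 (28.8%) CpGs from 70 to 80% and 6478 (10%) from 20 to 30%. Just inside the limits lay a CpG on chromosome 6 at position 128819978 with 20.002% and one on chromosome 5 at position 141170882 with 80%. Just outside lay a CpG on chromosome 1 at position 32843916 with 19.999% and one on chromosome 20 at position 45520254 with 80.0004%. The mean level fell with the number of neighbours also in the L-DOPA group, which the rule did not use, from 56.1% without a neighbour to 51.5% with 4.

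The mean methylation of the CpGs was 56.6, 56.3 and 55.8% in the UNT rats, which chose them. It was 55.9, 54.9 and 53.4% in the L-DOPA rats and 51.3, 50.7 and 54.5% in the L-DOPA + R rats. These values correspond to 56.2 ± 0.420% (SD, n = 3), 54.8 ± 1.25% and 52.2 ± 2.02%. The rats of L-DOPA and L-DOPA + R overlapped, since rat 3 of L-DOPA + R lay above rat 3 of L-DOPA. Over single striata the lowest, median and highest values were 55.1, 56.4 and 57.2% in UNT, 52.2, 55.5 and 56.1% under L-DOPA, and 49.4, 52.3 and 54.7% under L-DOPA + R. Sparse CpGs over 80% in UNT had 91.7 to 92.2% in the UNT striata, 90.4 to 91.3% in those of L-DOPA and 89.7 to 90.8% in those of L-DOPA + R. CpG-dense intermediate CpGs had 48.0 to 50.4%, 45.0 to 48.5%, and 43.3 to 48.3%.

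Within each treated group, the level was lowest in the library that covered CpGs of low methylation best. The median coverage of sparse CpGs under 20% divided by that of sparse CpGs over 80% was 0.930 to 1.03 in the UNT striata, 0.833 to 1.19 for L-DOPA and 1.0 to 1.48 for L-DOPA + R. It was highest in 4 striata. These were the control striatum of L-DOPA rat 3 (ratio 1.19, level 52.2%), both striata of L-DOPA + R rat 2 (control 1.38 and 51.3%, lesioned 1.35 and 50.1%) and the control striatum of L-DOPA + R rat 1 (1.48 and 49.4%). Without these 4 striata, the mean was 55.3 ± 0.513% under L-DOPA and 53.9 ± 0.793% under L-DOPA + R, which then rested on 2 rats, since both striata of rat 2 were left out. Among the L-DOPA striata kept, the level did not fall with the ratio, with 53.7% at 0.875 (rat 2, lesioned) and 55.8% at 0.943 (rat 1, control). The part of the coverage in the difference between groups was not tested further.

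**Figure D1:**
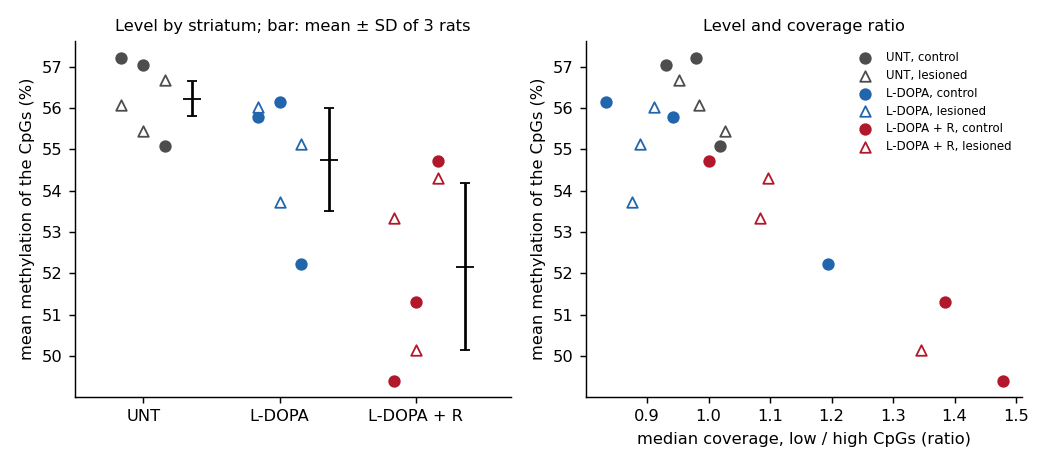
Mean methylation in percent of the 64812 sparse intermediate CpGs in each striatum, by treatment (left) and against the ratio of the median coverage of CpGs low and high in methylation (right). Filled circles are control and open triangles lesioned striata, and bars are the mean ± SD of 3 rats. The L-DOPA + R striata lay between 49.4 and 54.7%, and the lowest value belonged to the striatum with the highest ratio, 1.48.

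The levels of the CpGs stayed mostly within the window that chose them. By the mean of the rats, 2079 CpGs (3.21%) were under 20% in L-DOPA and 3752 (5.79%) were over 80%. In L-DOPA + R, 3243 (5.0%) were under 20% and 2879 (4.44%) over 80%. More CpGs left the window at its upper end under L-DOPA and at its lower end under L-DOPA + R. In UNT, 18644 CpGs lay from 70 to 80% and 6478 from 20 to 30%. The counts at the ends therefore do not give a direction of change. Split by the UNT level in steps of 10 points, the mean of each step was lower in both treated groups. The difference from UNT was -0.987 to -1.8 points for L-DOPA and -2.93 to -4.79 points for L-DOPA + R, with the most negative values from 50 to 60%.

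Some of the CpGs formed stretches along the genome. When those with gaps of at most 1 kb were joined, 36502 stretches resulted. Most of these, 20310, held a single CpG, which was 31.3% of the 64812 CpGs, and 14 stretches held 12 or more. The longest, on chromosome 3 (rn6 chr3:172384756-172387896), held 23 CpGs in 3141 bp. Its rats had 53.5, 52.9 and 53.2% in UNT, 51.1, 50.6 and 51.9% under L-DOPA and 43.6, 48.4 and 51.6% under L-DOPA + R. The UNT mean of its CpGs was 53.4% with an SD of 5.29 points across the CpGs. The nearest genes of the study's lists were Pmepa1, 1088799 bp before it, and Lama5, 3208833 bp after it. In GRCr8, Gnas, an imprinted gene for the alpha subunit of the stimulatory G protein, stands between these neighbours. Whether the stretch lies in Gnas was not tested.

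A stretch of 22 CpGs on chromosome 1 (chr1:11915204-11917117) varied far more. Its CpGs ran from 20.3 to 77.1% in UNT, and its rats had 49.9, 34.4 and 45.9% in UNT, 26.6, 28.7 and 35.2% under L-DOPA and 42.8, 26.5 and 46.5% under L-DOPA + R. Rats of each treated group overlapped with those of UNT. A stretch of 17 CpGs on chromosome 14 (chr14:107748606-107749521) ended 1574 bp before a listed site of Zrsr1, an imprinted gene for a splicing factor of the U2AF family that lies inside Commd1. Its rats had 53.4, 52.3 and 48.5% in UNT, 46.5, 49.2 and 46.4% under L-DOPA and 45.1, 47.5 and 51.3% under L-DOPA + R. A stretch of 13 CpGs on chromosome 14 (chr14:38363124-38363834) had 58.8 ± 2.79%, 55.7 ± 2.67% and 48.0 ± 6.12% in the 3 groups. These stretches were chosen after their values were seen, the first 3 by their number of CpGs and the last by its levels.

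**Figure D2:**
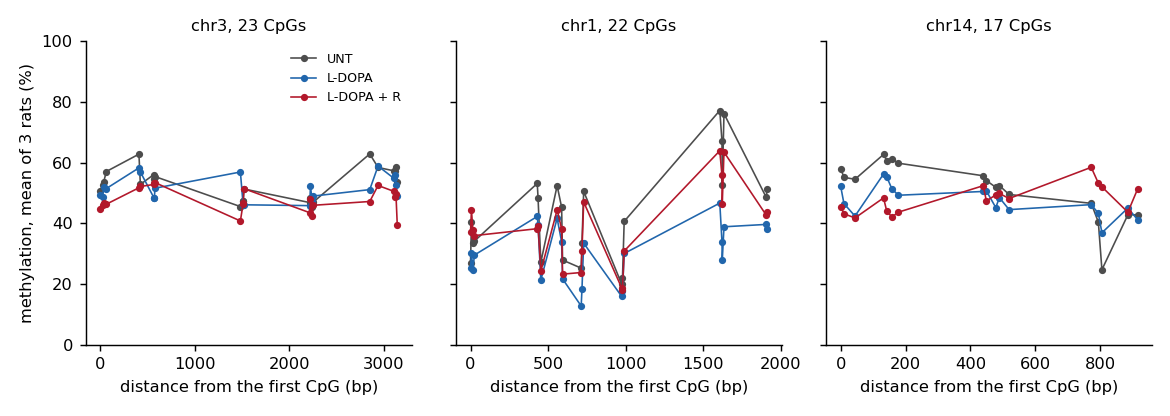
Methylation in percent of each CpG in the 3 stretches with most sparse intermediate CpGs, as the mean of 3 rats per treatment, against the distance in bp from the first CpG. The stretch on chromosome 3 stays near 53.4% in UNT along its 23 CpGs, while the one on chromosome 1 runs between 20.3 and 77.1%.

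Neighbouring CpGs had similar levels in the 12 striata of the treated groups, which did not choose them. At a distance of up to 10 bp the levels of neighbours differed by a median of 6.59 points (4869 pairs), at 21 to 50 bp by 8.83 points, at 101 to 200 bp by 10.7 points and at 501 to 1000 bp by 17.0 points (954 pairs). The share of pairs within 10 points of each other fell from 65.7% to 32.3% over these distances. Pearson's r across pairs was 0.725 at the shortest and 0.201 at the longest distance. Pairs up to 50 bp apart can share reads, and CpGs are not independent replicates, so that these values describe the set without a test.

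**Figure D3:**
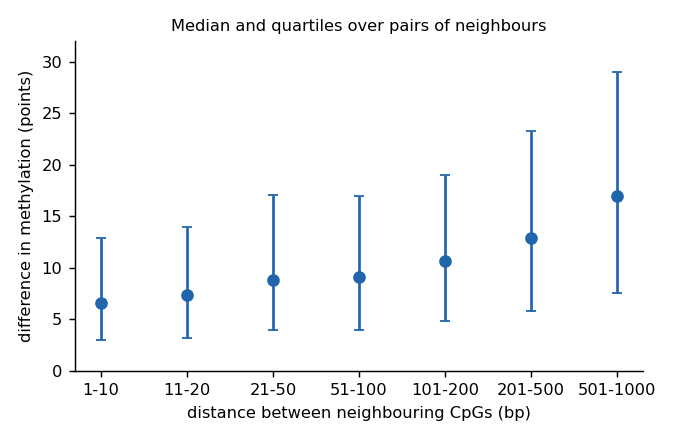
Difference in methylation, in points, between neighbouring sparse intermediate CpGs against their distance in bp, over the 12 treated striata. Points are medians and bars the quartiles over pairs, and the median rises from 6.59 points at 1 to 10 bp to 17.0 points at 501 to 1000 bp.

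The spread between striata was larger than the counting of reads alone gives. The dispersion relative to counting error within treatments had a median of 1.47, with quartiles of 1.13 and 1.90, and 20.6% of the CpGs were over 2. The median was 1.57 at CpG-dense intermediate CpGs, 1.32 at sparse CpGs over 80% and 1.03 at those under 20%. Over the 9 rats, the highest and the lowest level of a CpG lay a median of 22.2 points apart, and at 841 CpGs (1.30%) they lay more than 50 points apart. Both striata of the same rat differed by a mean of 11.3 points per CpG over the 9 rats, striata of different rats of a treatment by 11.7 points (36 pairs) and striata of different treatments by 12.3 points (108 pairs). A striatum was closer to the other side of its own rat than to other rats of its treatment in 6 of 9 rats.

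The 5 CpGs with the smallest range over the 9 rats, among those with at least 60 reads in every rat, were selected for that range and are given as a description. A CpG on chromosome 15 at position 70514143 had 79.5, 77.5 and 77.3% in UNT, 78.8, 77.4 and 77.6% under L-DOPA and 77.7, 80.1 and 77.8% under L-DOPA + R. The deepest of them, on chromosome 6 at position 133780155 with 442 to 1472 reads per rat, had 68.5, 67.9 and 67.7%, then 68.6, 68.7 and 67.9%, then 71.0, 70.1 and 69.7% in the same order of groups. A CpG on chromosome 17 at position 10544644 stayed between 17.7 and 21.8%. The remaining CpGs of the 5 with the smallest range lay on chromosome 15 at position 40047711, between 75.8 and 79.5%, and on chromosome 19 at position 18795569, between 31.6 and 35.8%.

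At the other end were CpGs where single rats were near 0, near 50 or near 100%. A CpG on chromosome 13 at position 83100979 had 1.92, 2.11 and 62.0% in the UNT rats, 0, 100 and 1.54% under L-DOPA and 57.4, 0 and 93.3% under L-DOPA + R. A CpG on chromosome 12 at position 45370361 had 0, 54.7 and 98.6% in UNT, 98.1, 97.1 and 99.2% under L-DOPA and 97.4, 64.2 and 51.9% under L-DOPA + R. Their intermediate UNT mean was made of rats at different levels. A CpG on chromosome 3 at position 124929373 had 46.3, 53.6 and 100%, then 47.0, 92.9 and 0.862%, then 45.0, 42.5 and 54.6%, and one on chromosome 20 at position 7957438 had 39.4, 99.0 and 42.3%, then 0, 94.6 and 45.7%, then 44.8, 60.9 and 50%. A CpG in an intron of Slc39a11, a zinc transporter (chromosome 10, position 101823688), had 52.3, 0.709 and 96.9% in UNT, 56.0, 99.1 and 40.8% in L-DOPA and 0% in each L-DOPA + R rat. In all, 150 CpGs (0.231%) had every rat under 10%, from 35 to 65% or over 90% with a range of over 30 points. In bisulfite reads a C-to-T difference in the sequence of a rat is read as an unmethylated cytosine, and no genotype was used here, so a low level at such a CpG cannot be told apart from a sequence difference.

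Levels also differed between the strands of a CpG. In every striatum, 46730 of the CpGs (72.1%) were read on 1 strand, and 2324 (3.59%) were read on both. The remaining 15758 (24.3%) had a second strand that reached 10 reads in some striata but not in others. At the 2324 CpGs read on both strands, the strands differed by a median of 5.45 points in UNT and lay within 10 points of each other at 1737 (74.7%). At 165 of them (7.10%) they lay more than 50 points apart in UNT, and at 166 and 168 in the treated groups. The classes were cut on the UNT level of both strands together, which leaves little room for such a gap in UNT at CpGs over 80%. In the treated groups, which did not set the classes, the gap was found at 14 and 14 of 425 CpG-dense intermediate CpGs and at 9 and 10 of 2923 sparse CpGs over 80% read on both strands.

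The wide gaps went with the place of the CpG along the read. On one strand only, 614 of the 2324 CpGs lay 46 to 50 bases past another called cytosine on that strand, and 161 of these (26.2%) had a gap of over 50 points. Where neither strand lay at this distance, 3 of 1693 (0.177%) had such a gap. At all 161, the strand at 46 to 50 bases was the lower one, with a median of 5.78% against 93.5% on the other strand. These are UNT values, and UNT chose the CpGs. In L-DOPA 163 of 166 and in L-DOPA + R 166 of 168 such gaps lay at the 631 CpGs with a strand at 46 to 50 bases. Which strand was the lower one was taken from UNT only. The sum of both strands was an intermediate level at CpGs of which one strand read as methylated and the other as unmethylated. In all, 7512 CpGs (11.6%) lay at this distance on a strand. Without such cytosines 4090 of them were no longer read in every striatum, 2921 were still intermediate, 488 were over 80% and 13 were under 20%.

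**Figure D4:**
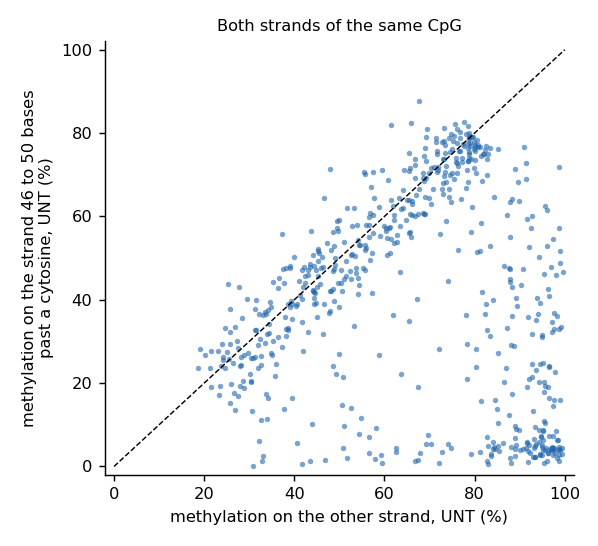
Methylation in percent of the same CpG on its strands in UNT, for the 614 sparse intermediate CpGs read on both strands with one strand 46 to 50 bases past a called cytosine. Points far below the dashed line of equal levels are the 161 CpGs with a gap of over 50 points, which all have the lower level on that strand.

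The lesioned and the control striata were compared first, within each treatment, to address the effect of the lesion. At a q under 0.01 (logistic model with overdispersion, chi-square test, Benjamini-Hochberg adjustment over all tested CpGs), 1 sparse intermediate CpG was called in UNT, 2 under L-DOPA and 3 under L-DOPA + R. Over all tested CpGs, 0.00193% were called in UNT, 0.00101% under L-DOPA and 0.00176% under L-DOPA + R. An unadjusted p under 0.05 was found at 4395, 3586 and 4149 of the 64812 CpGs. These were 6.78, 5.53 and 6.40%, against 6.45, 5.40 and 6.29% of all tested CpGs. With the rat as a block, which pairs both striata of an animal, 1, 9 and 9 CpGs were called, and 0.00400%, 0.00581% and 0.00805% of all tested CpGs were.

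Near Pde10a, the cAMP and cGMP phosphodiesterase of striatal medium spiny neurons, 2 CpGs were higher on the lesioned side of the L-DOPA + R rats. At position 52448655 of chromosome 1, the control striata had 52.5, 48.3 and 38.0% and the lesioned striata of the same rats 83.0, 72.7 and 75%, and the sides did not overlap. The lesioned side was 30.1 points higher (q = 0.00232). At position 52448612, the control striata had 46.7, 35.1 and 36.2% and the lesioned striata 76.6, 66.7 and 67.2%, again without overlap and 30.4 points higher (q = 0.00347). Both CpGs were read on 1 strand and can share reads, with 42 to 61 reads per striatum at the second. In L-DOPA the sides overlapped at both CpGs, with differences of 1.11 and 0 points, and in UNT the differences were 4.68 and -5.02 points. Leaving out any 1 of the L-DOPA + R rats kept the direction, at 27.6 to 32.6 points for both CpGs, and ended the calls, with q values of 0.0478 to 0.214. A CpG at position 52448713 lay in an intron of Pde10a according to the region lists of the study.

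The CpG called in UNT, on chromosome 5 at position 143941108, had 63.3, 65.6 and 59.3% in the control and 94.1, 93.1 and 100% in the lesioned striata. The difference was 32 points (q = 0.00846), on 15 to 34 reads per striatum of 1 strand, and the sides overlapped in both treated groups. Leaving out any 1 rat ended the call, with q values of 0.0472 to 0.107 and 29.1 to 34.5 points. On chromosome 8 at position 46205401, the control striata had 33.3, 45.5 and 37.9% in L-DOPA and the lesioned ones 3.70, 0 and 4.17%. In L-DOPA + R the control striata had 57.7, 38.9 and 54.5% and the lesioned ones 0, 5.0 and 10.5%. This CpG was called in both groups, at -34.8 points (q = 0.00836) and -43.3 points (q = 0.00232). Its forward strand, at 89.8% and 93.5% in these groups, had at least 10 reads in the 3 control striata of each group and in none of the lesioned ones, and its reverse strand lay 46 to 49 bases past a cytosine at 3.57% and 4.12%. On chromosome 3 at position 176639515, called in L-DOPA at -25.8 points (q = 0.00688), the control striata had 26.7, 31.8 and 28.8% and the lesioned ones 2.50, 0 and 7.41%. Its reverse strand, at 93.5% in the control striata, had under 10 reads in all 3 lesioned striata. The sides of these CpGs were thus summed over different strands. With only cytosines of at least 10 reads in all 18 striata, the differences were -0.643 and 3.23 points on chromosome 8 and 1.43 points on chromosome 3, and none was called.

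Whether the difference between the sides depended on the treatment was tested with an interaction term. None of the 64812 CpGs passed a q of 0.01 in any pair of treatments, with smallest q values of 0.0684, 0.0517 and 0.0711, while 3519, 3610 and 3884 had an unadjusted p under 0.05. Over all tested CpGs, 2 of 303723 passed for L-DOPA + R and L-DOPA and 0 for either treated group and UNT. The share of all tested CpGs with an unadjusted p under 0.05 was not taken, so nothing is read from the counts at that p.

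The comparison of L-DOPA + R with L-DOPA addressed the effect of Riluzole and used no striatum that chose the CpGs. In this comparison, 67 CpGs (0.103%) were called, and 0.0477% of all tested CpGs were. Of these, 37 were lower in L-DOPA + R, against 0.0276% of all tested CpGs, and 30 were higher, against 0.0201%. The share of called CpGs was 0.148% at CpG-dense intermediate CpGs (5 calls), 0.0592% at sparse CpGs under 20% and 0.0295% at sparse CpGs over 80%. The sizes of the differences lay between 11.2 and 76.0 points, with a median of 33.3. The median difference over all 64812 CpGs was -2.51 points, and 10.5% had an unadjusted p under 0.05, against 7.09% of all tested CpGs. Without the 4 striata with a high coverage ratio, which leaves 2 L-DOPA + R rats here and wherever these striata were left out, 55 CpGs were called (0.0849%, against 0.0404% of all tested CpGs), with 22 lower and 33 higher, so that the larger number changed sides. Without L-DOPA + R rat 3, 163 were called (0.251%), and 0.0898% of all tested CpGs, of which 40 were higher and the others lower. Leaving out single rats also changed the larger side, with 23 lower and 32 higher without L-DOPA + R rat 2 and 41 lower and 50 higher without L-DOPA rat 2.

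The called CpGs stood alone. None lay within 1 kb of another, and of the 35 that had another sparse intermediate CpG within 50 bp, none had one that was called. At 19 of these 35 the neighbour moved the same way. Over all 35, the neighbour's difference in the direction of the called CpG had a median of 3.89 points, against 31.3 points at the called CpG itself. The region lists of the study held 63 of the 67 and placed 41 between genes, 18 in introns, 3 in promoters and 1 in an exon. All rats of L-DOPA were at 5% or less at 16 of the 67, and all rats of L-DOPA + R at 7. The UNT levels chose the CpGs, so their spread is given as a description. The range of the UNT rats had a median of 18.1 points at the called CpGs and 9.73 points at all, and it was over 30 points at 28 of the 67 (41.8%) and at 1.55% of all 64812.

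The 8 CpGs with the smallest p and no overlap between rats fell into those near 0 in L-DOPA, those near 0 in L-DOPA + R and 1 with neither. Of the 67 called CpGs, 10 had every rat near 0, 50 or 100%, against 0.231% of all the CpGs, and the limit given above for such CpGs holds also where a whole group is near 0. In an intron of Ptges, the synthase that makes prostaglandin E2 (chromosome 3, position 9734873), the L-DOPA rats had 0% each, the L-DOPA + R rats 65.9, 45.7 and 61.3% and the UNT rats 42.9, 35.3 and 1.19%. All L-DOPA + R rats were above all L-DOPA rats, by 57.9 points (q = 8.68e-23, logistic model as above). In an intron of Ppil1, a prolyl isomerase of the spliceosome (chromosome 20, position 6793842), the L-DOPA rats had 0% each, the L-DOPA + R rats 34.8, 43.3 and 38.7% and the UNT rats 46.7, 32.9 and 0.741%. The difference was 39.4 points (q = 1.40e-27).

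Between genes, a CpG on chromosome 3 at position 161534682 had 0% in each L-DOPA rat, 28.4, 46.4 and 32.3% under L-DOPA + R and 45.4, 34.8 and 0.498% in UNT, a difference of 35.0 points between the treated groups (q = 7.12e-33). A CpG on chromosome 5 at position 14793651 had 0, 0 and 0.820% under L-DOPA, 44.8, 53.8 and 39.8% under L-DOPA + R and 44.6, 80.9 and 2.60% in UNT (44.6 points, q = 1.80e-31). On chromosome 3 at position 15238472, the values were 0, 1.14 and 0.893% under L-DOPA, 47.9, 42.2 and 41.3% under L-DOPA + R and 1.26, 52.4 and 92.6% in UNT (43.1 points, q = 4.14e-24). At each of these 5 CpGs, 1 UNT rat lay near 0 like the L-DOPA rats and the other UNT rats lay well above them.

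The reverse was seen at 2 CpGs. On chromosome 1 at position 199636834, the L-DOPA rats had 44.8, 41.9 and 47.3%, the L-DOPA + R rats 0, 0 and 0.787% and the UNT rats 82.5, 35.9 and 1.38%. The difference was -45.0 points with the smallest p of all 64812 CpGs (q = 3.26e-61). On chromosome 10 at position 101534020, the L-DOPA rats had 36.7, 43.1 and 43.9%, the L-DOPA + R rats 0, 1.37 and 0% and the UNT rats 48.9, 36.9 and 73.1% (-40.8 points, q = 2.01e-27). Here all UNT rats were well above the L-DOPA + R rats. The last of the 8, on chromosome 1 at position 148470139, had 90.6, 89.7 and 91.7% under L-DOPA, 58.8, 36.5 and 52.0% under L-DOPA + R and 57.5, 56.2 and 52.1% in UNT (-41.7 points, q = 1.30e-31). It was the only one of the 8 at which the UNT rats lay within 10 points of each other.

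**Figure D5:**
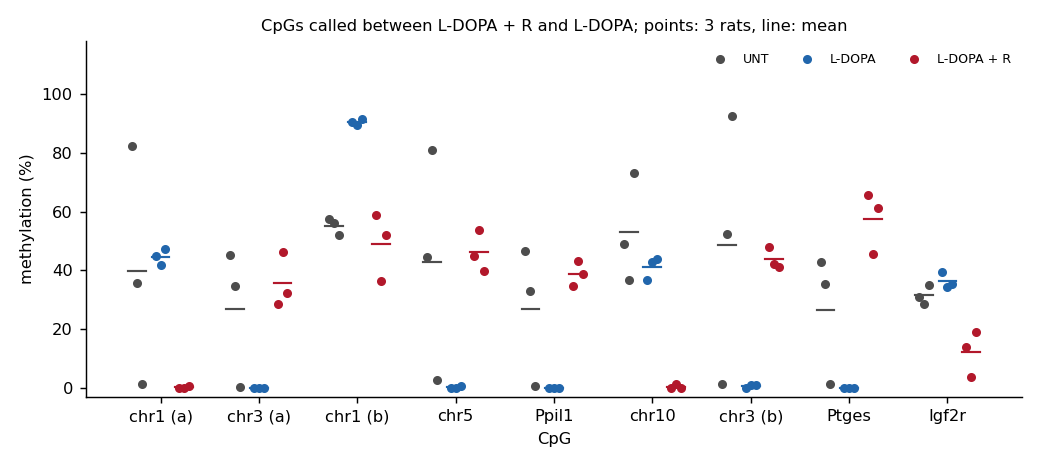
Methylation in percent of 9 CpGs called between L-DOPA + R and L-DOPA, as points for 3 rats per treatment and lines for their mean. CpGs without a gene are named by chromosome, in the order of position 199636834 (a) and 148470139 (b) on chromosome 1, and 161534682 (a) and 15238472 (b) on chromosome 3. At 5 CpGs the L-DOPA rats lie at or near 0 while the UNT rats spread widely.

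Among gene lists of glutamate receptors (24 genes), dopamine and cAMP signalling (33), calcium channels (26), synaptic organisers (23), DNA methylation enzymes (8) and imprinted genes (22), the called CpGs of this comparison lay in 1 gene, Igf2r. This imprinted gene encodes the receptor that carries mannose 6-phosphate enzymes to lysosomes and clears insulin-like growth factor II. An intronic CpG (chromosome 1, position 48196298) had 39.7, 34.4 and 35.4% in the L-DOPA rats, 13.8, 3.64 and 19% under L-DOPA + R and 30.9, 28.6 and 35.1% in UNT. All L-DOPA + R rats were lower than all others, by 25.8 points against L-DOPA (q = 0.00183), on 29 to 81 reads per rat. With the reads of both striata added up and the rat as the unit, the q was 0.0696, and without the 4 striata of high coverage ratio the difference was -20.4 points and the q 0.447. Leaving out L-DOPA rat 1 or 3 or L-DOPA + R rat 1 or 2 ended this call, at -20.1 to -26.7 points and q values of 0.0104 to 0.339.

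The 3 CpGs in promoters, which were taken by region after their values were seen, belonged to Serpinh1, Mir29b1 and Cb707485. In the promoter of Serpinh1 (chromosome 1, position 164307788), the L-DOPA rats had 70.3, 52.3 and 49.3% and the L-DOPA + R rats 29.9, 33.3 and 33.3%, without overlap, and the UNT rats had 56.6, 67.1 and 49.0%. The difference was -25.6 points (q = 0.00225). It was -29.6 points (q = 0.0901) without the 4 striata of high coverage ratio and -25.6 points with the rat as the unit (q = 0.169), and it missed the threshold also without L-DOPA rat 1 (-18.8 points) or without any 1 of the L-DOPA + R rats (-24.1, -26.2 and -26.2 points). Without cytosines 46 to 50 bases past another it was -30.5 points (q = 0.115). In the promoter of Mir29b1 (chromosome 4, position 58344743), the L-DOPA rats had 0% each, the L-DOPA + R rats 5.0, 12.3 and 14.6% and the UNT rats 24.3, 20.9 and 26.9%, in 3 separate ranges, and the treated groups differed by 11.2 points (q = 0.00547). The difference was 10.9 points (q = 0.0839) without the 4 striata of high coverage ratio, and 0 points when only cytosines with at least 10 reads in all 18 striata were used. Leaving out any 1 L-DOPA rat, with the difference still 11.2 points, or L-DOPA + R rat 3, with 9.02 points, also ended this call, at q values of 0.031 to 0.254. Both CpGs lay 46 to 49 bases past a called cytosine. At Cb707485 (chromosome 20, position 3534263), the L-DOPA rats had 0, 0 and 1.72%, the L-DOPA + R rats 27.9, 31.1 and 31.2% and the UNT rats 41.5, 35.6 and 36% (29.3 points between the treated groups, q = 1.44e-09). This call held under all alternatives but the F test.

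The treated groups were also set beside UNT, to address the effect of L-DOPA. Since UNT chose the CpGs, nothing is read from these counts. In L-DOPA against UNT, 547 CpGs (0.844%) were called and 0.351% of all tested CpGs, with 380 lower (0.269% of all tested) and 167 higher (0.0828%). In L-DOPA + R against UNT, 903 (1.39%) were called and 0.445% of all tested CpGs, with 740 lower (0.361%) and 163 higher (0.0839%). Both comparisons share the UNT striata. The median differences of all 64812 CpGs were -1.41 and -3.90 points. Rats did not overlap at 8323 CpGs (12.8%) for L-DOPA + R against L-DOPA, at 9038 (13.9%) for L-DOPA against UNT and at 12477 (19.3%) for L-DOPA + R against UNT, with 9.03%, 9.75% and 11.8% over all CpGs of the set.

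Strand and place along the read went with many of these calls. Of the CpGs called against UNT, 391 of 547 (71.5%) under L-DOPA and 501 of 903 (55.5%) under L-DOPA + R had a second strand that reached 10 reads in some striata only, against 24.3% of all the CpGs and 19 of 67 (28.4%) called between the treated groups. Exactly 50 bases past a called cytosine lay 190 of the 380 lower CpGs under L-DOPA and 209 of the 740 under L-DOPA + R, while 1.73% of all the CpGs did. When only cytosines with at least 10 reads in all 18 striata were used, 237 CpGs (131 lower and 106 higher) and 521 (420 lower and 101 higher) were called, and 65 between the treated groups. These were 0.381, 0.839 and 0.105% of the tested CpGs of the set, against 0.216, 0.350 and 0.0557% of all tested CpGs. Without cytosines 46 to 50 bases past another, the numbers were 115, 324 and 55, or 0.189, 0.532 and 0.0903%, against 0.0776, 0.132 and 0.0437% of all tested CpGs.

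The CpGs with the smallest p against UNT included some that were read on a single strand in every striatum. On chromosome 11 at position 8893036, the UNT rats had 48.2, 47.3 and 48.2%, the L-DOPA rats 95.7, 98.0 and 96.3% and the L-DOPA + R rats 95.3, 98.6 and 95.8%. In an intron of Rbm20, a splicing factor of titin (chromosome 1, position 274397891), the UNT rats had 53.2, 52.3 and 52.8%, the L-DOPA rats 95.1, 98.7 and 95.8% and the L-DOPA + R rats 98.3, 98.9 and 98.8%. Each was read on 1 strand with no cytosine 46 to 50 bases before it, and both lay near 50% in every UNT rat and over 95% in every treated rat. In an exon of Actn2, an actin crosslinker of Z discs and dendritic spines (chromosome 17, position 66325363), the UNT rats had 31.5, 26.9 and 29.5%, the L-DOPA rats 92.1, 89.3 and 90.5% and the L-DOPA + R rats 79.7, 90.1 and 86.1%. Its reverse strand, read in all 18 striata, had 29.7% in UNT, 87.0% under L-DOPA and 81.3% under L-DOPA + R. The forward strand had under 10 reads in every UNT striatum and was used in 5 striata of each treated group, at 98.7% under L-DOPA and 93% under L-DOPA + R.

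At other CpGs with small p the strands changed. On chromosome 19 at position 11289414, the UNT rats had 60.5, 60.1 and 59.3%, the L-DOPA rats 2.17, 0 and 0% and the L-DOPA + R rats 3.57, 5.56 and 10.5%. The forward strand had 360 reads at 86.1% in UNT and 7 and 9 reads in the treated groups, where it was not used, and the reverse strand, 46 to 49 bases past a cytosine, had 3.59% in UNT and 0.855% and 6.86% in the treated groups. The CpGs on chromosome 14 at position 103432876 and chromosome 11 at position 32910549 had the same pattern. The first had 37.4 ± 5.17% in UNT and 97.0 ± 3.6% and 100 ± 0% in the treated groups, with a forward strand at 5.79% that was used in UNT only and a reverse strand at 97.4% in UNT. The second had 48.2 ± 1.18%, 6.43 ± 2.56% and 5.03 ± 3.63%, with a reverse strand at 94.7% that was used in UNT only.

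In the gene lists, the called CpGs against UNT included signalling genes of striatal neurons. At Pde10a (intron, chromosome 1, position 52511275), the UNT rats had 61.1, 55.6 and 56.1%, the L-DOPA rats 34.6, 31.4 and 29.5% and the L-DOPA + R rats 25.5, 22.8 and 26.9%. The forward strand had 57.8% in UNT, 52.2% under L-DOPA and 40.1% under L-DOPA + R, while the reverse strand, 50 bases past a cytosine, had no reads in UNT and 1.92% and 2.91% in the treated groups. Without cytosines 50 bases past another, L-DOPA minus UNT was -5.66 points, against -26.2 with them. For L-DOPA + R it was -17.7 points, against -32.8, and neither was called. At Pde4b, another cAMP phosphodiesterase (intron, chromosome 5, position 122037537), the UNT rats had 61.5, 50 and 45.6%, the L-DOPA rats 23.2, 9.09 and 25% and the L-DOPA + R rats 18.2, 16 and 14%. Its forward strand had 52.6, 58.5 and 39.5% in the 3 groups, and its reverse strand, 50 bases past a cytosine, had 1 read in UNT and 165 and 189 reads in the treated groups, at 1.82% and 1.59%. On the forward strand alone, the L-DOPA level was thus not below UNT. A second intronic CpG of Pde10a, at position 52448713, had 64.8 ± 9.53%, 41.0 ± 2.77% and 44.4 ± 7.14%, and its reverse strand was also 50 bases past a cytosine. Without such cytosines, L-DOPA minus UNT was 1.85 points and not called, against -23.5 points with them. The call also ended at 20 reads (-24.8 points) and without UNT rat 2 (-22.4 points). Also 50 bases past a cytosine was the reverse strand of the CpG in an intron of Lrrtm3, a synaptic adhesion protein (chromosome 20, position 26041422), with 75.6 ± 2.16%, 45.8 ± 2.88% and 38.5 ± 6.92%. Its forward strand had 78.1, 80.6 and 68.1%, and without cytosines 50 bases past another L-DOPA minus UNT was -1.20 points and not called, against -29.98 points with them.

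Among receptors and channels, an intronic CpG of Grm4, a metabotropic glutamate receptor (chromosome 20, position 6932893), had 63.4, 63.1 and 67.2% in UNT, 81.2, 78.3 and 72.1% under L-DOPA and 65.5, 67.6 and 71.5% under L-DOPA + R, on 1 strand with 106 to 415 reads per rat. The L-DOPA rats were 13 points above UNT without overlap. The call ended without L-DOPA rat 1 (10.1 points), L-DOPA rat 2 (12.7 points) or UNT rat 2 (12.4 points). An intronic CpG of Cacna1b, the pore of N-type calcium channels (chromosome 3, position 1913994), had 69.7, 63.4 and 62.0% in UNT, 61.7, 47.4 and 60.7% under L-DOPA and 43.6, 42.6 and 48.1% under L-DOPA + R. The level of L-DOPA + R minus that of UNT was -21.0 points, on a single strand. The call ended without UNT rat 1 (-17.9 points), without any 1 of the L-DOPA + R rats (-20.0 to -22.6 points) and without the 4 striata of high coverage ratio (-18.5 points). When cytosines 46 to 50 bases past another were left out, the difference was the same -21.0 points and the q just missed the threshold. The CpGs of Grik4, a kainate receptor subunit (exon, chromosome 8, position 46947939), Cacna1a, the pore of P/Q-type channels (intron, chromosome 19, position 25668345), and Cacnb2, a beta subunit (intron, chromosome 17, position 81992770), were called in L-DOPA against UNT, with 50.7 ± 2.75% and 16.8 ± 12.7%, 47.3 ± 3.44% and 29.7 ± 6.87%, and 45.1 ± 4.01% and 71.5 ± 0.359% in these groups. At each of the 3, one strand was used in more UNT than treated striata. The forward strand of Grik4, used in all 18 striata, had 6.04% in UNT, 2.92% for L-DOPA and 9.84% for L-DOPA + R, and that of Cacna1a had 26.8, 29.3 and 29.6%. Cacnb2 differed from these, since its reverse strand, used in all 18 striata, had 42.5, 71.6 and 59.2%. This strand lay 46 to 49 bases past a cytosine, and the forward strand of Cacnb2 was used in UNT only, at 64.0%. With only cytosines of 10 reads in all 18 striata, L-DOPA minus UNT was -3.12 points at Grik4 and 2.51 points at Cacna1a, against -32.8 and -18.1 points with all, and neither was called. The call of Grik4 also ended without L-DOPA rat 3 (-37.1 points), and that of Cacna1a without UNT rat 1 (-15.9 points) or L-DOPA rat 3 (-13.7 points). None of the called CpGs lay in the listed DNA methylation enzymes in either comparison.

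Close to each other in the promoter of Zrsr1 and also assigned to Commd1, 3 CpGs were called in L-DOPA + R against UNT. At position 107751095 of chromosome 14, the UNT rats had 64.0, 63.0 and 70.6%, the L-DOPA rats 63.5, 59.5 and 62.5% and the L-DOPA + R rats 41.5, 25.6 and 40.5%. At position 107751102 the means were 64.8 ± 4.11%, 62.4 ± 2.54% and 34.7 ± 7.28%, and at 107751128 they were 64.6 ± 7.42%, 62.5 ± 1.79% and 35.6 ± 9.57%. All L-DOPA + R rats were below all other rats at each of the 3, which were read on the forward strand alone and can share reads, the last of them 46 to 49 bases past a cytosine. Against L-DOPA, the differences of -25.7, -27.3 and -26.6 points did not pass (q = 0.0358, 0.0128 and 0.0194). Without the 4 striata of high coverage ratio, the differences from UNT were -22.1, -23.9 and -21.9 points and not called, against -29.8, -29.3 and -28.3 points with all striata. Leaving out L-DOPA + R rat 2 ended the calls at 107751095 (-24.9 points) and 107751128 (-23.3 points), and leaving out UNT rat 3 that at 107751128 (-24.0 points). At 20 reads the call at 107751128 ended as well (-24.6 points). The stretch of 17 CpGs on the same chromosome, which ends 1574 bp before a listed Zrsr1 site, had overlapping rats in both treated groups.

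In promoters against UNT, the CpG of Igfals (chromosome 10, position 14239616) had 68.8, 71.7 and 67.7% in UNT, 52.0, 47.3 and 48.6% under L-DOPA and 43.5, 44.6 and 38.5% under L-DOPA + R. That of Parp16 (chromosome 8, position 70712178) had 78.2, 78.2 and 73.1%, then 43.9, 33.3 and 47.5%, then 40.7, 37.7 and 44.0%. Both lay 50 bases past a called cytosine. A CpG in the promoter of Fancd2os (chromosome 4, position 145555501) had 30, 54.5 and 40% in UNT, 83.3, 89.7 and 90.2% under L-DOPA and 48.6, 77.5 and 90% under L-DOPA + R, on 29 to 60 reads per rat and at no such distance. In the promoter of Cmss1, 3 CpGs that can share reads (chromosome 11, positions 45031818, 45031831 and 45031843) had 39.4 ± 4.06%, 40.1 ± 4.54% and 39.6 ± 3.25% in UNT and 21.5 ± 5.09%, 23.4 ± 4.23% and 22.3 ± 3.89% in L-DOPA. These promoter CpGs were named after their values were seen.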

How the data were processed

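RRBS of both striata of 9 rats was used, with 3 rats per treatment. Per the submitters' processing notes and the methods of the study, the reads were trimmed with Trim Galore 0.4.0 and mapped to rn6 with Bismark. The authors deposited, for each striatum and each cytosine of a CpG, the coverage as a count of reads and the percent of reads with C and with T, without a minimum or normalization. Methylated reads were rebuilt from coverage and percent, cytosines with at least 10 reads were kept, strands were added up and spike-ins were left out. Each CpG was tested with a logistic model of the reads with overdispersion from Pearson residuals and a chi-square test, written anew after methylKit (scipy 1.17.1, pandas 2.3.3, numpy 2.4.6, Python 3.11.15) and tested on simulated data. Benjamini-Hochberg adjustment covered all tested CpGs, and CpGs with q under 0.01 were called. Treatments were compared at CpGs present in at least 4 of 6 striata per group, each striatum as a sample, and sides at CpGs present in all 6. Differences in points are from summed reads, and mean ± SD values are over rats with both striata added up. The labels give the side and a replicate number, and striata with the same number in a group were taken as both sides of 1 rat. The labels do not state this pairing, on which all values per rat and the replicate block rest. The deviations of the striata of such a pair from the group means correlated at r = 0.0315 to 0.138 across CpGs, with a mean of 0.0740.

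The CpGs and gene lists were chosen with earlier results of these data known. Named by rule were, among CpGs without overlap between rats, the 8 with the smallest p for L-DOPA + R against L-DOPA and the 5 for each comparison with UNT, up to 4 for each comparison of sides, the 5 with the smallest and the 5 with the largest range over rats among those with at least 60 reads in every rat, and called CpGs in the gene lists. The alternatives were at least 20 reads, no cytosines 50 or 46 to 50 bases past another, at most 2 other CpGs, levels from 30 to 70%, the F test, no overdispersion correction, the rat as the unit, CpGs in all 12 striata, a replicate block and each rat left out in turn. The level from summed reads, leaving out 4 striata, and using only cytosines with 10 reads in all 18 striata were chosen after seeing the data. Gene names and regions are from the study's lists, and sequences are from RefSeq (GRCr8). The sequence of rn6 was not used here.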

Additional observations from a re-analysis of the deposited data

Results flagged for a closer look

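In 11 of 132 groups of 6 striata, 1 striatum lay far from the others, by a gap to the nearest other striatum of more than 0.625 of the range of the group. Chance gives about 1 in 20 such groups. The widest gaps between informative levels were at the CpG on chromosome 1 at position 148470139, where the control striatum of L-DOPA + R rat 2 had 22.2% and the others 47.2 to 60%, and in the promoter of Zrsr1 at position 107751128 of chromosome 14, where the control striatum of UNT rat 3 had 77.1% and the others 58.6 to 63.2%. In the same promoter at position 107751095, the lesioned striatum of L-DOPA rat 2 had 54.5% and the others 61.5 to 65%. Near Pde10a (chromosome 1, position 52448655), the lesioned striatum of UNT rat 3 had 73.5% and the others 60.8 to 65.6%. At Lrrtm3 (chromosome 20, position 26041422), the lesioned striatum of UNT rat 3 had 87.9% and the others 72.3 to 76.3%. At position 103432876 of chromosome 14, the control striatum of L-DOPA rat 1 had 89.7% and the others 96.6 to 100%.

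At 4 CpGs the striatum that stood apart was the only one of its group above 0. These were L-DOPA + R rat 3, lesioned, with 1.14% at position 199636834 of chromosome 1, L-DOPA + R rat 2, lesioned, with 2.27% at position 101534020 of chromosome 10, L-DOPA rat 1, lesioned, with 4.76% at position 11289414 of chromosome 19, and L-DOPA rat 3, lesioned, with 1.52% at position 14793651 of chromosome 5. The last was the coverage ratio of sparse CpGs with low and high methylation, at 1.19 in the control striatum of L-DOPA rat 3 and 0.833 to 0.943 in the other L-DOPA striata.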

How the results depend on the processing

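The number of called CpGs moved by more than 1.5 times under several settings. For L-DOPA + R against L-DOPA (67), it was 24 at 20 reads, 43 at levels from 30 to 70%, 1 with the F test and 543 without overdispersion correction. These were 0.122, 0.108, 0.00154 and 0.838% of the tested CpGs of the set, against 0.0742, 0.0477, 0.000352 and 0.285% of all tested CpGs. Fewer CpGs of the set were tested at 20 reads (19726) and at 30 to 70% (39690), and their shares were not below the 0.103% of the 67. For L-DOPA against UNT (547), it was 156 at 20 reads, 308 without cytosines 50 bases and 115 without those 46 to 50 bases past another, 58 with the F test, 1275 without overdispersion correction and 237 with only cytosines of 10 reads in all 18 striata, or 0.791, 0.477, 0.189, 0.0895, 1.97 and 0.381%, against 0.421, 0.159, 0.0776, 0.0622, 0.744 and 0.216% of all tested CpGs. For L-DOPA + R against UNT (903), these were 362, 580, 324, 47, 2900 and 521, and 383 without the 4 striata of high coverage ratio, or 1.84, 0.899, 0.532, 0.0725, 4.47, 0.839 and 0.591%, against 0.599, 0.227, 0.132, 0.0578, 1.22, 0.350 and 0.284% of all. For the sides, UNT (1) gave 0 at 20 reads, without cytosines 46 to 50 bases past, with the F test, at 30 to 70% and with only cytosines of 10 reads in all 18 striata, and 10 without overdispersion correction. The sides in L-DOPA (2) gave 0 under each of these and without cytosines 50 bases past, and 15 without overdispersion correction, and those in L-DOPA + R (3) gave 0 with the F test and 24 without overdispersion correction. With the replicate block, which pairs both striata of a rat, 1, 9 and 9 CpGs were called between the sides in UNT, L-DOPA and L-DOPA + R. Leaving out a rat gave 54 to 163, 436 to 628 and 542 to 1063 calls for the 3 comparisons of treatments in the order above, with the 542 without L-DOPA + R rat 2 and the 163 and 1063 without L-DOPA + R rat 3, and 0 to 8, 1 to 6 and 3 to 7 for the sides. For the rats left out, and for the sides without overdispersion correction, the counts are given here without the share over all tested CpGs. Nothing is read from these counts about the set. Beyond the fewer CpGs tested, the cause of the changes between settings was not tested.

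At 20 reads the mean UNT level was 55.7% and the gaps between striata were 9.26, 9.65 and 10.3 points. Of the 19726 CpGs of the set at this setting, 2775, 2920 and 4334 had no overlap between rats. The share over all CpGs was not taken at 20 reads, so nothing is read from these counts. At 30 to 70% the mean levels were 52.3, 50.6 and 47.8%. Strand gaps over 50 points were found at 0.897, 1.35 and 1.35% of CpGs at 20 reads, at 0.173, 0.173 and 0.116% without cytosines 46 to 50 bases past another, and at 9.56, 9.36 and 9.36% at levels from 30 to 70%. The direction turned at CpGs whose strands differ. Without cytosines 50, or 46 to 50, bases past another, L-DOPA against UNT was 1.85 points at the Pde10a CpG at position 52448713 and 5.08 points at Pde4b. With only cytosines of 10 reads in all 18 striata, Cacna1a was 2.51 and 2.77 points above UNT in L-DOPA and L-DOPA + R, Grik4 3.80 points in L-DOPA + R, and the sides differed by 3.23 points at position 46205401 of chromosome 8 in L-DOPA + R and by 1.43 points at position 176639515 of chromosome 3 in L-DOPA, there also at 20 reads. The 8 CpGs named for L-DOPA + R against L-DOPA were called under every setting they were run under but the F test, under which 1 was, and the Ptges CpG gave no value at 20 reads.

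With 3 rats per group and a median coverage of the CpGs of about 24 to 61 reads per striatum, differences of a few points were not detectable at a CpG of such coverage.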
